A study of Mus musculus with 2 samples.

Results

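The 4 Dlx transcription factor genes Dlx1, Dlx2, Dlx5 and Dlx6 and the long non-coding RNA gene Dlx6os1 are described here across the cells of the embryonic mouse brain. They were taken by their symbols, 5 of the 32285 genes in the files, and each symbol had 1 row. The libraries are WT replicate 1 and WT replicate 6, both from wild-type (WT) embryos at embryonic day 16.5 of a series set up around conditional knockout of Dot1l with Emx1-Cre. The conditional knockout was not analysed here, so every comparison is between cell classes of the same 2 WT libraries. The labels give the tissue as brain hemispheres and the dissected part as dorsal telencephalon, and the strain of the study's single-cell work is C57BL/6J. Whether a library held 1 embryo or several was not given in the sources used here, so p-values measure the spread between these 2 libraries, which may be technical.

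DLX proteins are homeodomain transcription factors. Their genes lie in convergent pairs, Dlx1 with Dlx2 and Dlx5 with Dlx6, and in the forebrain they are known for the ganglionic eminences, the ventral germinal zones that make GABAergic neurons. Dlx1 and Dlx2 are switched on first, in dividing progenitors, and are needed for the differentiation and migration of GABAergic interneurons, while Dlx5 and Dlx6 follow as cells leave the cycle. Dlx6os1, also known as Evf2, is an RNA transcribed opposite to Dlx6 that is known to act on the regulation of its neighbours. The medial (MGE), caudal (CGE) and lateral (LGE) ganglionic eminences give rise to different GABAergic neurons, the last also to those of the striatum.

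In the GRCm38.p6 assembly, the patch release of mm10, Dlx1 (ENSMUSG00000041911) lies at chr2:71528113-71533981 on the plus strand. Dlx2 (ENSMUSG00000023391) lies at chr2:71543408-71546754 on the minus strand, with 9426 bases between their ends. Dlx6 (ENSMUSG00000029754) lies at chr6:6863334-6867970 on the plus strand, and Dlx5 (ENSMUSG00000029755) at chr6:6877801-6882068 on the minus strand, with 9830 bases between them. Dlx6os1 (ENSMUSG00000090063) spans 51085 bases at chr6:6820543-6871627 on the minus strand and covers all 4637 bases of Dlx6. A further antisense gene, Dlx1as, shares 3344 bases with Dlx1. Whether counting used strand or intronic reads was not given in the sources used here, so reads of Dlx6 and Dlx6os1, and of Dlx1 and Dlx1as, may not be fully told apart. Levels are therefore compared for 1 gene between classes and not between genes.

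The RefSeq promoter table for GRCm38.p6 held windows for 3 of the 5 genes. The 250 bases before the start of Dlx2 and of both Dlx6os1 starts are shown, because their base composition differs widely although the genes share their cell classes. The Dlx2 window is chr2:71546755-71547004 and the Dlx6os1 windows are chr6:6869534-6869783 and chr6:6861684-6861933, all on the minus strand and written 5′ to 3′. Capitals mark CACGTG, a form of the E-box bound by bHLH factors, in Dlx2, and TAATTA, a core bound by homeodomain factors, in Dlx6os1. Both motifs read the same on both strands and were chosen after the sequences had been seen.
Dlx2: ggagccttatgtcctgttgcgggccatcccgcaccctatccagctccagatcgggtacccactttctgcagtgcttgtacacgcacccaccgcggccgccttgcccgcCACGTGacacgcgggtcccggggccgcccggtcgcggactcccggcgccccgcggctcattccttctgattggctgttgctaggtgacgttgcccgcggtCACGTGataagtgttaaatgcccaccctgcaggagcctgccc
Dlx6os1, upstream start: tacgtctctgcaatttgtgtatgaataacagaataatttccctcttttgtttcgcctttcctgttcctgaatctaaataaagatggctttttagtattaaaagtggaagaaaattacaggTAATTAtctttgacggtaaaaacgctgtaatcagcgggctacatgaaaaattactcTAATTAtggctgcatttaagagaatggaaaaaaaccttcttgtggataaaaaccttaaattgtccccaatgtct
Dlx6os1, downstream start: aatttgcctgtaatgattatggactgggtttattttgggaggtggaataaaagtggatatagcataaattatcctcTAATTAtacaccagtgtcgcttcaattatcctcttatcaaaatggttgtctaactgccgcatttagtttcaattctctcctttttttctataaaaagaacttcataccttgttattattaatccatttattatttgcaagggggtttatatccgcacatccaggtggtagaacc

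The Dlx2 window had 66.4% GC and 24 CpG, against a median GC of 52.4% over 32851 windows. The Dlx6os1 windows had 33.2% and 34.0% GC, with 5 and 3 CpG. The E-box form stood 142 and 42 bases before the Dlx2 start. Of all windows, 6.02% held it at least once and 0.429% at least 2 times. TAATTA stood 130 and 74 bases before the upstream start of Dlx6os1 and 174 bases before the downstream start. It was found in 4.84% of all windows, and at least 2 times in 0.444%. A match of these letters is a description and not a binding site.

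The libraries held 14136 and 13046 cells with 74930397 and 68964234 unique molecular identifiers (UMIs, 1 per captured mRNA molecule), and 59 cell barcodes were shared between them. After filters on UMIs, mitochondrial UMIs and doublets, 7219 and 7352 cells were used. Cells were placed in classes by marker genes, none of them a Dlx gene. Levels are counts per 1000000 UMIs (CPM), from the sums over the cells of a class in a library, given as WT replicate 1, WT replicate 6 and the mean ± SD over the 2 libraries (n = 2 throughout). The classes in which the Dlx genes were high were 385 cycling eminence progenitors, 827 MGE, 366 CGE and 524 LGE-type neurons, and striatal neurons of 2 types, 396 with Ebf1 and Isl1 and 318 with Drd2 and Six3. Eminence progenitors carried Gsx2 at 26.4 and 38.0 CPM and next to no Emx1 (0.911 and 0 CPM), MGE neurons Lhx6 at 277 and 307 CPM, and CGE neurons Prox1 at 340.1 and 349.8 CPM. LGE-type neurons carried Tshz1 at 572 and 705 CPM, but also the CGE marker Adarb2 at 3945 and 4270.0 CPM. The gates used such markers and limited Emx1 in eminence progenitors, so these levels describe the gates and do not test the class names. Cortical classes were 244 radial glial cells (RGCs), 995 intermediate progenitor cells (IPCs) and 4847 excitatory neurons. The tissue was dissected as dorsal telencephalon, yet eminence progenitors and striatal neurons were among the cells.

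Dlx1 stood highest in eminence progenitors, at 600.3 and 565 CPM (583 ± 25.1). CGE neurons followed at 473 and 387 CPM (429.9 ± 61.0), LGE-type neurons at 306 and 349 (327 ± 30.2) and MGE neurons at 239 and 221 (229.8 ± 12.3). Both striatal types were lower, at 97.0 and 114 CPM for Drd2/Six3 neurons (106 ± 11.98) and at 36.6 and 43.3 CPM for Ebf1/Isl1 neurons (40.0 ± 4.69). In this order no class overlapped the next, from the dividing eminence cells to the Ebf1/Isl1 neurons of the striatum. Excitatory neurons had 7.44 and 6.56 CPM.

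Dlx2, its partner on chromosome 2, had the same class at the top, with 256 and 282 CPM in eminence progenitors (269 ± 18.5). CGE neurons had 157 and 151 CPM (154 ± 3.86). LGE-type neurons, at 112 and 128 CPM (120.0 ± 11.5), and MGE neurons, at 122 and 116 CPM (119 ± 3.57), overlapped and could not be ordered. Drd2/Six3 neurons had 48.5 and 61.4 CPM (54.9 ± 9.09) and Ebf1/Isl1 neurons 14.8 and 23.1 (19.0 ± 5.88), again without overlap. The pair thus shared its highest class and its 2 lowest GABAergic classes.

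Dlx5 was far more even across the same classes. LGE-type neurons had 130.5 and 143 CPM (137 ± 8.89), CGE neurons 137 and 123 (130.3 ± 10.0) and eminence progenitors 123 and 128 (125 ± 3.56). The 3 classes overlapped from one to the next. Drd2/Six3 neurons had 109 and 99.0 CPM (104 ± 6.88), MGE neurons 88.6 and 118 (103 ± 20.5) and Ebf1/Isl1 neurons 95.1 and 86.5 (90.8 ± 6.04), and these too overlapped in turn. The only gap between neighbours lay between eminence progenitors and Drd2/Six3 neurons. Ebf1/Isl1 neurons, the lowest of the 6 classes for Dlx1 and Dlx2, overlapped with MGE neurons in Dlx5.

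Dlx6 had no gap between any neighbours among the 6 classes. It ran from 60.6 and 76.7 CPM in LGE-type neurons (68.6 ± 11.4) through 53.2 and 63.4 in Ebf1/Isl1 neurons (58.3 ± 7.20) and 47.8 and 59.5 in eminence progenitors (53.7 ± 8.28). CGE neurons had 48.0 and 59.1 CPM (53.5 ± 7.89), Drd2/Six3 neurons 60.2 and 42.6 (51.4 ± 12.4) and MGE neurons 48.6 and 39.6 (44.1 ± 6.39). The libraries disagreed on the order of the last 3. Between 34 and 119 UMIs stood behind each of these values.

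Dlx6os1, the RNA opposite Dlx6, did not follow Dlx6. CGE neurons had the highest level, at 1942 and 2063 CPM (2003 ± 85.3), ahead of LGE-type neurons at 1434 and 1469.8 (1452 ± 25.5) and eminence progenitors at 1160.1 and 1065 (1112 ± 67.6). MGE neurons had 785 and 872 CPM (829 ± 61.5). Drd2/Six3 neurons, at 562 and 526 CPM (544 ± 25.3), overlapped with Ebf1/Isl1 neurons, at 421 and 529 CPM (475 ± 76.3). Apart from the 2 striatal types, no class overlapped the next in this order.

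**Figure D1:**
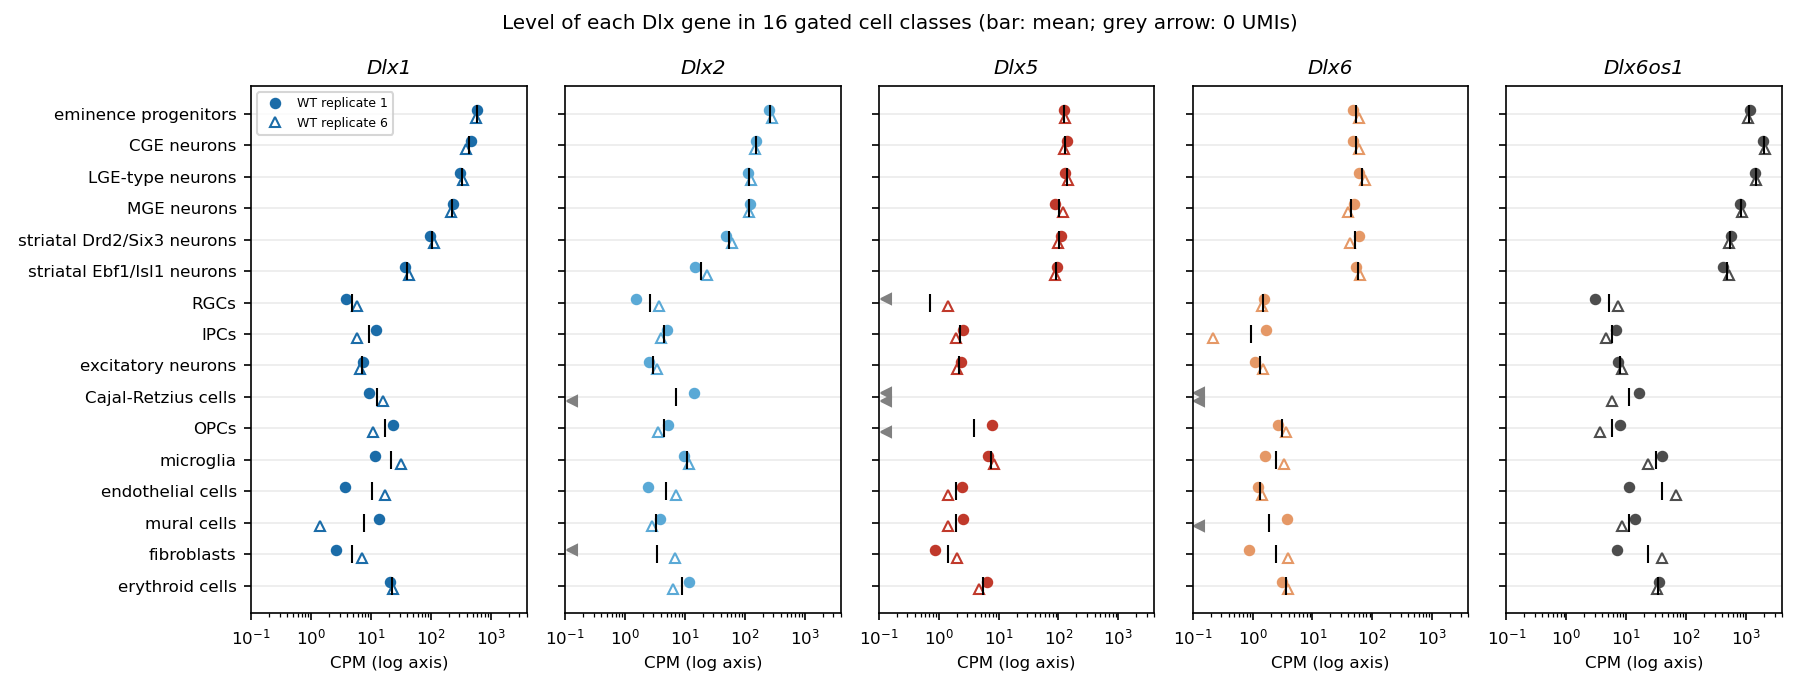
Level of each Dlx gene in 16 cell classes, in CPM on a log axis, with a circle for WT replicate 1, a triangle for WT replicate 6 and a bar for the mean; a grey arrow marks a library with 0 UMIs. The means of the 6 upper classes lie above those of the other 10 for every gene, and Dlx1 and Dlx2 go down from eminence progenitors (583 and 269 CPM) to striatal Ebf1/Isl1 neurons (40.0 and 19.0 CPM) while Dlx5 stays between 90.8 and 137 CPM and Dlx6 between 44.1 and 68.6.

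Beyond these classes the genes were low. In RGCs the levels were 4.83 CPM for Dlx1, 2.59 for Dlx2, 0.728 for Dlx5, 1.49 for Dlx6 and 5.17 for Dlx6os1. Erythroid cells, which should lack these genes, had 22.1 CPM of Dlx1, 8.98 of Dlx2, 5.55 of Dlx5, 3.57 of Dlx6 and 33.7 of Dlx6os1. This level was not spread evenly over the erythroid cells. The 3 cells with the most Dlx6os1 held 17 of 33 UMIs in WT replicate 1 and 23 of 41 in WT replicate 6, and 2.65% and 1.16% of erythroid cells had 3 or more of the 5 genes, against 0.133% and 0.0773% of excitatory neurons and no RGC. The gates of excitatory neurons and RGCs limited UMIs of GABAergic genes and that of erythroid cells did not, so these shares are not on equal terms. The source of the erythroid values was not tested. All 3 cortical classes lay below the erythroid mean for each of the 5 genes, and no expression is read from these values. In 1 IPC of WT replicate 1, with 15675 UMIs and all 8 cycling markers, 16 UMIs of Dlx1 and 10 of Dlx2 were found, out of 58 and 24 in the IPCs of that library. Without this cell, an alternative added after the data had been seen, Dlx1 in those IPCs went from 12.3 to 8.96 CPM and Dlx2 from 5.10 to 2.99. Endothelial cells had 11.1 and 67.7 CPM of Dlx6os1, a spread that 1 library decides.

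The first comparison asked where the genes are used among neurons that have left the cell cycle. All 5 were higher in GABAergic than in excitatory neurons, by 4.99 ± 0.09 (log2, SE) for Dlx1, 5.01 ± 0.12 for Dlx2, 5.60 ± 0.10 for Dlx5, 5.33 ± 0.13 for Dlx6 and 7.0 ± 0.11 for Dlx6os1. As folds these are 31.8, 32.3, 48.5, 40.1 and 128. The largest of the 5 adjusted p-values was 9.7e-08 (edgeR quasi-likelihood test, Benjamini-Hochberg over all genes). A gene is called below when its adjusted p was under 0.05, and in this comparison 45.3% of all genes tested were called. The excitatory levels, against which the folds are taken, lay below those of erythroid cells for each gene.

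Among dividing cells all 5 were higher in eminence progenitors than in cycling cortical RGCs and IPCs, where 19.7% of genes were called. The log2 differences were 5.95 ± 0.34 for Dlx1, 5.47 ± 0.21 for Dlx2, 5.69 ± 0.24 for Dlx5, 5.59 ± 0.37 for Dlx6 and 7.65 ± 0.22 for Dlx6os1, with 1.5e-06 as the largest adjusted p (edgeR). The cortical cells held 31 and 5 UMIs of Dlx1, and 16 of the 31 came from the single IPC above. Within the libraries its difference was 5.24 and 7.49.

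Between eminence progenitors and GABAergic neurons the pairs parted. Dlx1 was 2.48-fold higher in the progenitors (log2 1.31 ± 0.10, adjusted p = 6.7e-06, edgeR), with 583 ± 25.1 against 238 ± 0.251 CPM. Dlx2 was 2.69-fold higher (log2 1.43 ± 0.09, adjusted p = 2.0e-06), with 269 ± 18.5 against 101 ± 3.46 CPM. Dlx5 differed by 0.17 ± 0.09 (adjusted p = 0.132), Dlx6 by -0.06 ± 0.12 (adjusted p = 0.689) and Dlx6os1 by 0.06 ± 0.11 (adjusted p = 0.641), none past the threshold. Of all genes, 56.2% were called here, so 2 of 5 is not more than the rest of the genes show. The progenitors were also deeper, with median UMIs of 10313.5 and 11060.0 per cell against 3992 to 4668, which a level in CPM allows for.

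**Figure D2:**
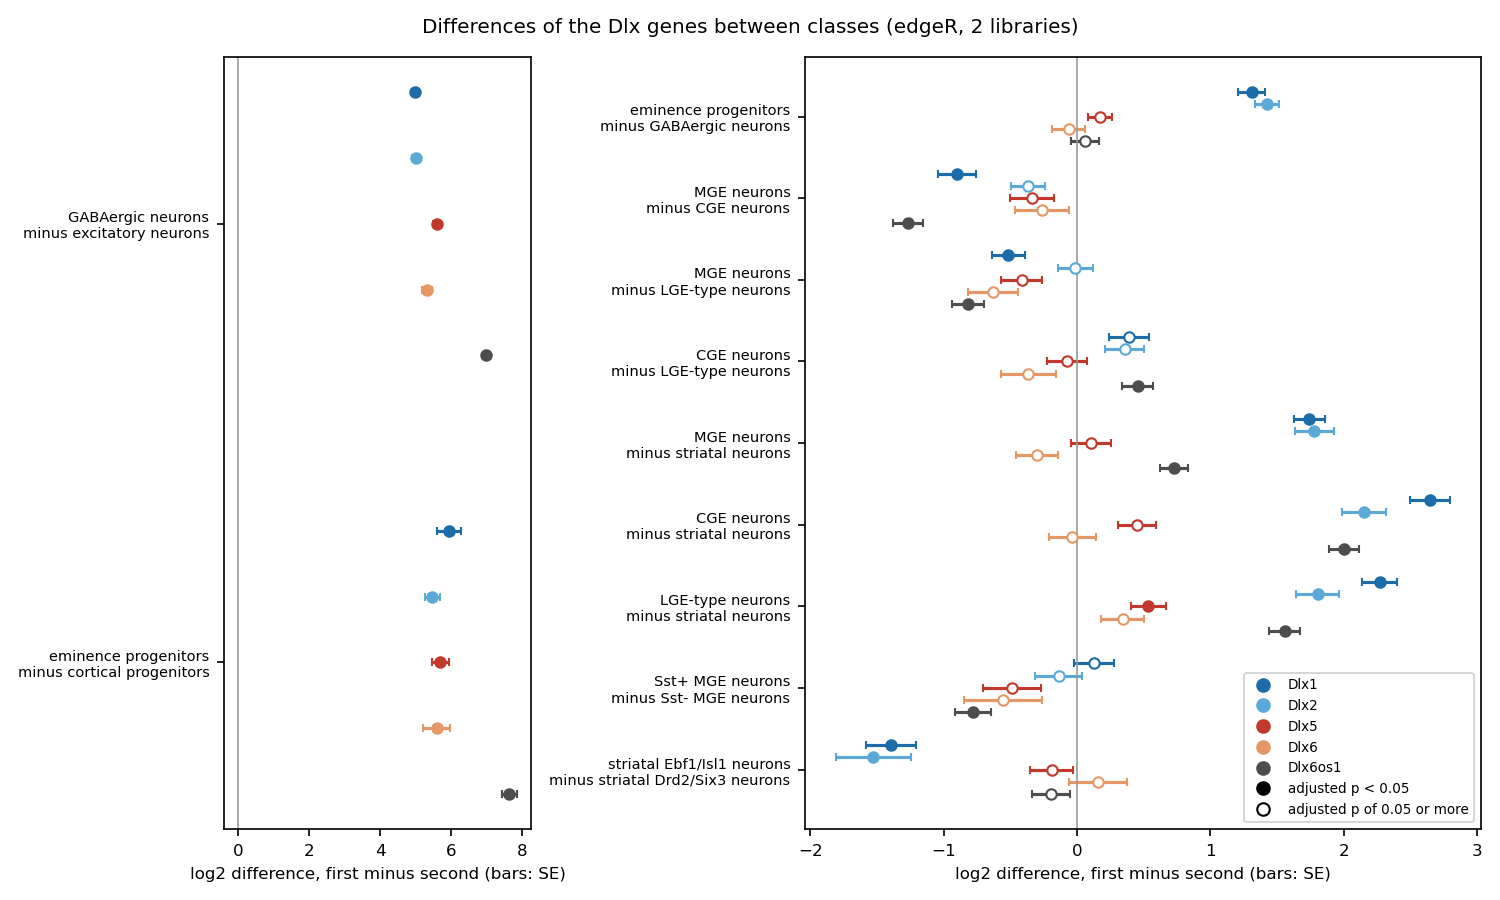
Log2 difference of each gene in 11 comparisons, first class minus second, with SE bars; filled points have an adjusted p under 0.05 in the edgeR test. The left panel holds the comparisons with cortical cells, all between 4.99 and 7.65, and the right panel those within the GABAergic lineage, where Dlx1, Dlx2 and Dlx6os1 move most and Dlx6 has no filled point.

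The next comparisons set the GABAergic lineages against each other. Between MGE and CGE neurons, with 7.5% of genes called, Dlx1 was lower in MGE neurons by 1.86-fold (log2 -0.90 ± 0.14, adjusted p = 0.002, edgeR) and Dlx6os1 by 2.41-fold (log2 -1.27 ± 0.11, adjusted p = 3.3e-05). Dlx2 at -0.37 ± 0.13, Dlx5 at -0.34 ± 0.17 and Dlx6 at -0.26 ± 0.21 were not called, with adjusted p of 0.148, 0.345 and 0.612. The 2 called genes lie on different chromosomes. Their neighbours were not called, but their means were also lower in MGE neurons, for Dlx2 and Dlx5 without overlap between the classes. On simulated data for this comparison 57% of genes changed by a log2 of 1 were recovered, so differences of this size may have been missed.

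Between MGE and LGE-type neurons, with 11.4% of genes called, Dlx1 was again lower in MGE neurons (log2 -0.51 ± 0.13, adjusted p = 0.0184, edgeR) and so was Dlx6os1 (log2 -0.82 ± 0.12, adjusted p = 4.7e-04). With the library as a replicate block, Dlx5 (-0.42, adjusted p = 0.00945) and Dlx6 (-0.62, adjusted p = 0.00376) were called as well, against 0.121 and 0.0507 with the settings used above. Both were also called with all classes in a single fit (0.00687 and 0.0172, edgeR). Dlx6 was called without a filter on low counts (0.0233) and with doublets kept (0.0420) too. Dlx2 differed by -0.01 ± 0.13. The call on Dlx1 ended with DESeq2 (adjusted p = 0.131), with all classes in a single fit (0.132), with deeper cells only (0.0528) and with gates free of Gad genes (0.0972).

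Between CGE and LGE-type neurons only Dlx6os1 was called, at 0.46 ± 0.12 (adjusted p = 0.0435, edgeR), where 7.75% of genes were called. That call ended under 6 of 9 alternatives, with adjusted p up to 0.583 in the single fit, although the difference was 0.44 and 0.49 within the libraries. Dlx1 at 0.39 ± 0.15 and Dlx2 at 0.36 ± 0.14 were not called (adjusted p = 0.204 and 0.223, edgeR), though neither overlapped between the classes. With the library as a block Dlx1 was called too (0.39, adjusted p = 0.0368).

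The striatal neurons, both types together, stood apart in the chromosome 2 pair and in Dlx6os1. Against MGE neurons, with 17% of genes called, they had less Dlx1 (3.34-fold), Dlx2 (3.43-fold) and Dlx6os1 (1.66-fold), with log2 differences of 1.74 ± 0.12, 1.78 ± 0.14 and 0.73 ± 0.11. Against CGE neurons, with 14.1% called, the folds were 6.26 for Dlx1, 4.45 for Dlx2 and 4.01 for Dlx6os1. Against LGE-type neurons, with 10.5% called, they were 4.82, 3.50 and 2.95, and Dlx5 was called as well at 1.45-fold (log2 0.54 ± 0.13, adjusted p = 0.0233, edgeR). That Dlx5 call ended with DESeq2 (adjusted p = 0.473) and with gates free of Gad genes (0.0681), and the Dlx6os1 call against MGE neurons ended in the single fit (0.147). Among the other calls of these 3 comparisons the largest adjusted p was 7.0e-04. Dlx5 against CGE neurons had 0.45 ± 0.14 with an adjusted p of 0.0658, and of 0.0221 with the library block. It was also called in the single fit (0.0455), with doublets kept (0.0449), with deeper cells (0.0374) and with stricter gates (0.0254, edgeR for all). Dlx6 was not called in any of the 3, with -0.30 ± 0.16, -0.03 ± 0.18 and 0.34 ± 0.16.

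Between the 2 striatal types only Dlx1 and Dlx2 were called, in a comparison with 5.6% of genes called. Ebf1/Isl1 neurons had 42 and 43 UMIs of Dlx1 against 100 and 91 in Drd2/Six3 neurons, or 2.62-fold lower in CPM (log2 -1.39 ± 0.19, adjusted p = 4.2e-04, edgeR). For Dlx2 the UMIs were 17 and 23 against 50 and 49, or 2.88-fold lower (log2 -1.53 ± 0.28, adjusted p = 0.00478). The Dlx2 call ended with DESeq2 (adjusted p = 0.126) and with stricter gates (0.0525). Dlx5 at -0.19 ± 0.16, Dlx6 at 0.16 ± 0.22 and Dlx6os1 at -0.19 ± 0.14 were not called.

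MGE neurons were split by a UMI of Sst, which encodes the neuropeptide somatostatin. Sst+ cells (175) had 533 and 564 CPM of Dlx6os1 against 873 and 966 in Sst- cells (652), lower by 1.72-fold (log2 -0.78 ± 0.14, adjusted p = 0.00986, edgeR), with 2.06% of genes called. With all classes in a single fit the adjusted p was 0.188. Dlx1 at 0.13 ± 0.15, Dlx2 at -0.14 ± 0.18, Dlx5 at -0.49 ± 0.22 and Dlx6 at -0.55 ± 0.29 were not called. Sst+ cells were deeper, with median UMIs of 4662 to 5153 against 3804 to 3841, and the part of depth in the split was not tested.

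Among cortical classes no Dlx gene was called with the gates used. Between RGCs and IPCs, with 42.2% of genes called, Dlx1 differed by -0.98 ± 0.51 (adjusted p = 0.141), Dlx2 by -0.86 ± 0.56 (0.242) and Dlx6os1 by -0.20 ± 0.48 (0.771), while Dlx5 and Dlx6 were too low to be tested. Between RGCs and excitatory neurons, with 57% called, the smallest adjusted p was 0.106, for Dlx6os1 (edgeR for both). No unadjusted p was under 0.05 in either comparison, and RGCs held 0 to 10 UMIs per gene and library, a depth at which small differences cannot be seen. The gates kept cells with Gad or Slc32a1 UMIs out of the RGCs. With gates free of those genes the directions turned. Against IPCs 4 of the 5 were then called, with differences of 1.25 for Dlx1, 1.54 for Dlx2 and 2.5 for Dlx6os1, and against excitatory neurons 4 of the 5 were called, with differences of 1.19 to 2.11 over the 5.

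Dlx detection was then followed cell by cell, after each cell had been thinned to 2000 UMIs so that classes of different depth could be set side by side. A UMI of Dlx6os1 was found in 91.9% of CGE neurons, 81.2% of LGE-type, 69.3% of MGE, 54.4% of Drd2/Six3 and 49.5% of Ebf1/Isl1 neurons, and in 64.4% of eminence progenitors (means of 2 libraries). Without thinning these shares were 97.8%, 91.4%, 83.6%, 74.8%, 66.9% and 77.2%. Erythroid cells, at median depths of 2970 to 3626 UMIs, had a share of 3.91% after thinning, and excitatory neurons, at 7749 to 8626 UMIs, one of 1.60%. Nearly every CGE neuron therefore carried the RNA, and the GABAergic shares stood well above the level in cells that should lack it.

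Dlx1 was found in 57.6% of thinned eminence progenitors, 53.4% of CGE, 43.1% of LGE-type and 35.0% of MGE neurons. In striatal cells the share was 16.9% of Drd2/Six3 and 7.56% of Ebf1/Isl1 neurons, against 4.14% of erythroid cells and 1.88% of excitatory neurons. For Ebf1/Isl1 neurons the Wilson interval runs from 5.29% to 10.7%, close to the erythroid share. Dlx2 ran the same way, from 37.6% of eminence progenitors to 3.26% of Ebf1/Isl1 neurons, against 1.5% of erythroid cells. Dlx5 was found in 15.9% to 21.7% of each of the 6 classes and Dlx6 in 8.62% to 12.7%. In thinned RGCs neither gene was found in any of 244 cells, and for Dlx5 the Wilson interval (95%) reaches up to 1.55%. Intervals of this kind cover counting error only.

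**Figure D3:**
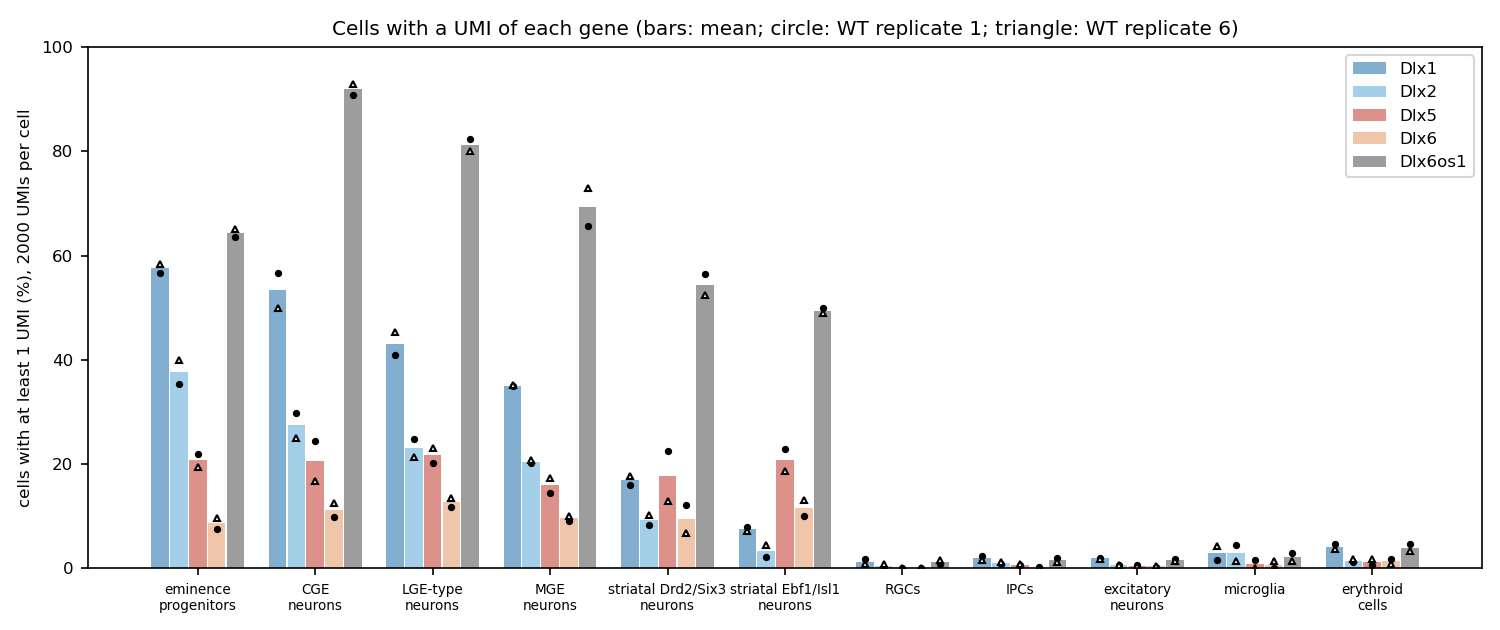
Percent of cells with at least 1 UMI of each gene after thinning to 2000 UMIs, by class, with bars for the mean of the 2 libraries, circles for WT replicate 1 and triangles for WT replicate 6. Dlx6os1 reaches 91.9% in CGE neurons, Dlx1 and Dlx2 drop in the striatal types, and excitatory neurons stay at or below 1.88% for every gene.

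Several Dlx genes were commonly found in the same cell. At 2000 UMIs, 3 of the 5 were seen in 25.6% of CGE neurons and 4 in 5.12%. In eminence progenitors 22.2% had 3, 6.83% had 4 and 0.513% all 5, and 13.4% had none. Without thinning, all 5 were seen in 23.7% of eminence progenitors. Cells with none of the 5 made up 3.31% of CGE, 9.63% of LGE-type and 14.1% of MGE neurons, but 31.8% of Drd2/Six3 and 33.5% of Ebf1/Isl1 neurons and 95.1% of excitatory neurons.

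Pairs of genes were set against the share that would follow if each were found independently, the product of their single shares. Over all GABAergic neurons Dlx1 and Dlx2 met in 8.40% of thinned cells against a product of 5.83%, a ratio of 1.46 and 1.42 in the libraries. The excess was not found in every class. Within MGE neurons 7.14% had both against a product of 7.18%, and within CGE neurons 14.8% against 14.7%. LGE-type neurons had 11.98% against 9.91%, with ratios of 1.24 and 1.18. Drd2/Six3 neurons had ratios of 2.88 and 2.64, with 4.30% against 1.57%, although only 13 cells held both. Of its cells with a Dlx2 UMI 46.4% had one of Dlx1, against 16.9% of all its cells.

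The chromosome 6 pair met no more often than its product over all GABAergic neurons, at 2.17% against 2.11% for Dlx5 with Dlx6. In eminence progenitors it did, at 3.14% against 1.77%, with ratios of 1.95 and 1.62 from 12 cells. Dlx6os1 was found in 85.9% of the eminence progenitors that held Dlx5, against 64.4% of all. For those that held Dlx6 the share was 84.2% ± 22.3, and the ratio to the product was 1.57 in WT replicate 1 but 1.05 in WT replicate 6, so an excess was seen in 1 library only. In CGE neurons all 37 cells with Dlx6 also had Dlx6os1, against 91.9% of all CGE neurons. Reads of these 2 genes may be shared between the opposite strands. Without thinning all 84 cells with Dlx6 had Dlx6os1, as did all 132 with Dlx5, which does not overlap Dlx6os1. The share of all CGE neurons was then 97.8%, so these counts lie close to what the high share alone would give.

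**Figure D4:**
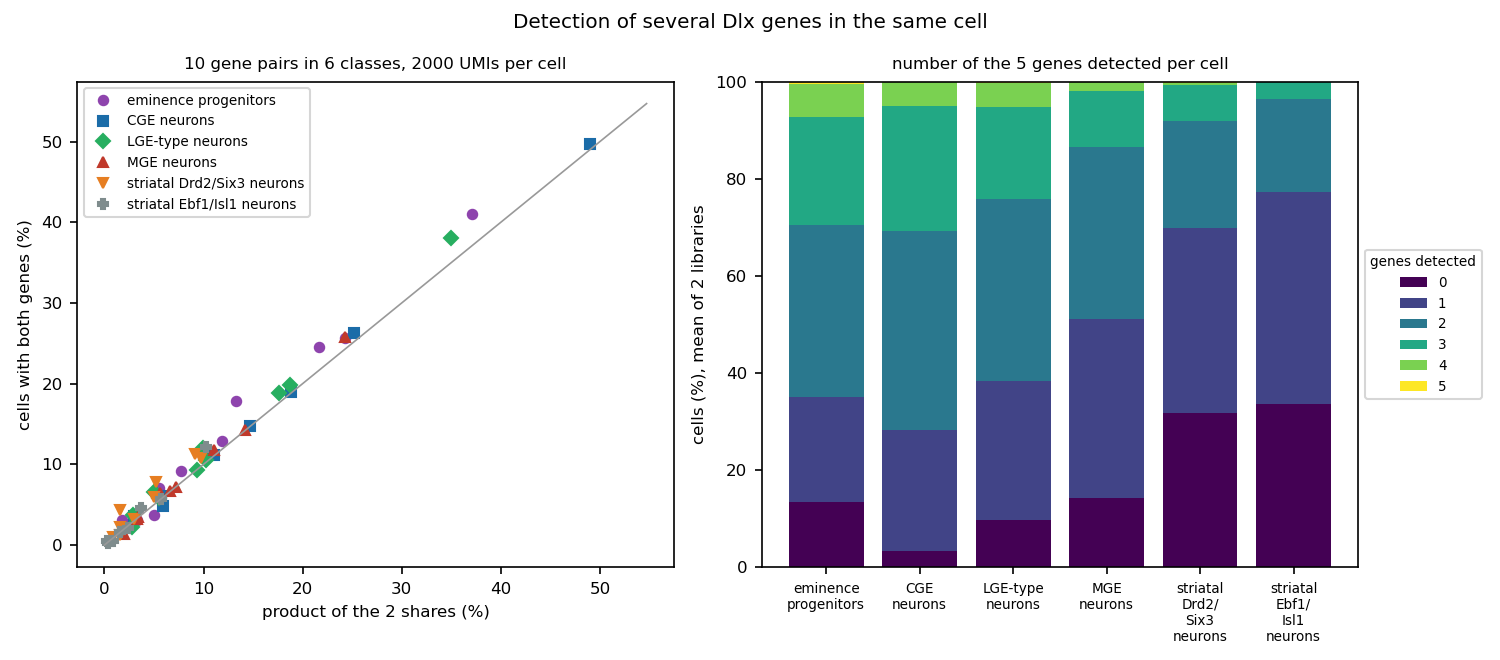
Left, percent of cells with both genes of a pair against the product of the single shares, 10 pairs in 6 classes at 2000 UMIs per cell, with the line of equality; right, percent of cells with 0 to 5 of the genes detected, mean of the 2 libraries. Most pairs lie close to the line, and in several classes, eminence progenitors among them, mainly above it. Cells with none of the genes rise from 3.31% in CGE to 33.5% in striatal Ebf1/Isl1 neurons.

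The balance between the pairs shifted along with these levels. The ratio of Dlx1 to Dlx5 UMIs was 4.66 ± 0.33 in eminence progenitors, 3.29 ± 0.22 in CGE, 2.39 ± 0.07 in LGE-type and 2.29 ± 0.57 in MGE neurons. It was 1.02 ± 0.18 in Drd2/Six3 and 0.443 ± 0.081 in Ebf1/Isl1 neurons. Within pairs it moved less, with Dlx1 to Dlx2 between 1.93 and 2.78 and Dlx5 to Dlx6 between 1.58 and 2.47 over the 6 classes. Dlx1 to Dlx6os1 was 0.221 ± 0.014 in all GABAergic neurons, 0.524 ± 0.009 in eminence progenitors, 0.657 ± 0.072 in erythroid cells and 0.897 ± 0.183 in excitatory neurons. The last 2 classes thus held more Dlx1 relative to Dlx6os1 than GABAergic neurons did. Other classes low in these genes differed, with 0.824 ± 0.753 in microglia, 0.294 ± 0.055 in endothelial cells and 0.277 ± 0.138 in fibroblasts. The ratio in low classes thus has no common value.

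Eminence progenitors were themselves not uniform, which was examined by splits chosen after the data had been seen and without a test. Cells with no Gad1 or Gad2 UMI (41 and 37 cells) had 492 ± 90.3 CPM of Dlx1 and 231 ± 12.4 of Dlx2, against 608 ± 9.40 and 279.7 ± 26.1 in the 148 and 159 cells with one. Dlx5 was at 59.5 ± 2.73 against 144 ± 1.21 CPM, Dlx6 at 23.1 ± 9.32 against 62.4 ± 12.3 and Dlx6os1 at 422 ± 118 against 1316 ± 80.0. The 3 genes of chromosome 6 were each over 2 times higher with a Gad UMI, which Dlx1 and Dlx2 were not. How many of all genes differ as much in such splits was not counted, so these values are a description. Gad2 is one of the gate genes, and cells without a Gad UMI had to pass the gate on the other markers.

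Cells with at least 2 of the radial glial genes Hes5, Slc1a3, Sox9 and Hopx (45 and 42 cells) showed the same in part. Their Dlx6os1 was at 729 ± 5.81 CPM against 1356 ± 159 in cells with none of these genes, and their Dlx5 at 94.6 ± 6.23 against 142 ± 35.2. Dlx1 was at 512 ± 104 against 564 ± 27.7 CPM, and the libraries overlapped. Cells with Nkx2-1, the factor that marks the MGE (40 and 19 cells), had more Dlx1, at 766 ± 0.923 against 552 ± 12.5 CPM, and similar Dlx6os1, at 1220.3 ± 61.9 against 1100 ± 79.9.

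**Figure D5:**
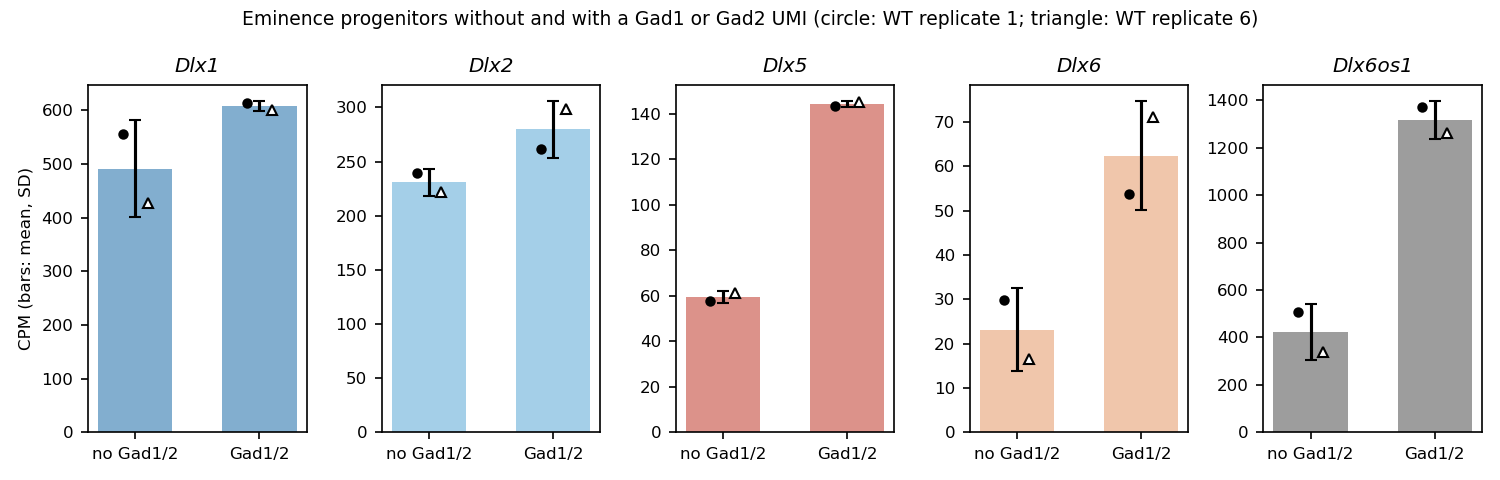
Level of each gene, in CPM, in eminence progenitors without and with a Gad1 or Gad2 UMI, with bars for the mean, whiskers for the SD, a circle for WT replicate 1 and a triangle for WT replicate 6. Without a Gad UMI the means are 492 and 231 CPM for Dlx1 and Dlx2 against 608 and 279.7 with one, and 59.5, 23.1 and 422 CPM for Dlx5, Dlx6 and Dlx6os1 against 144, 62.4 and 1316.

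Other genes of the Dlx network were taken from lists of 8 upstream factors, 26 factors downstream or alongside, 4 genes of GABA synthesis and transport and 8 of migration and adhesion, chosen with earlier results of these data known. Many of them are gate markers, which are left out of the examples. Between GABAergic and excitatory neurons, where 45.3% of all genes were called, 5 of the 6 upstream factors tested were higher. Only 1 of the 6 is no gate marker, Sp9, a zinc finger factor of the eminences, with 192 ± 14.7 against 2.98 ± 0.432 CPM. Of 26 factors that act downstream or alongside, 21 were higher and 4 lower, with a median of 3.82 against -0.02 over all genes. Of the 7 among them that are no gate markers, 3 were higher and 4 lower, with a median of -0.27. Meis1, a homeobox gene, stood at 187 ± 16.3 against 9.93 ± 1.64, while Nr2f1 was lower at 92.3 ± 8.43 against 183 ± 5.93. All 4 genes of GABA synthesis and transport were higher, 3 of them gate genes. Of 8 migration and adhesion genes 5 were higher, led by the neuregulin receptor gene Erbb4 (log2 8.04), and 3 lower, with Nrp1 at -3.12.

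Within the GABAergic lineage the network genes did not move as a body with the Dlx genes. Between eminence progenitors and GABAergic neurons, where Dlx1 and Dlx2 were higher in the progenitors, 6 of 8 upstream factors were higher there too, 5 of them gate genes, and 18 of 26 downstream genes were lower and none higher (median -0.69, against -0.04 over all genes, 56.2% of which were called). Of the 7 that are no gate markers, 3 were lower and 4 not called, with a median of -0.24. Sp9 (-0.15) was not called. Between the striatal types, Sp9 was lower in Ebf1/Isl1 neurons, as Dlx1 and Dlx2 were, at 26.0 ± 5.93 against 367 ± 33.4 CPM (log2 -3.82). Between MGE and LGE-type neurons, where 11.4% of all genes were called, 13 of 25 downstream genes were higher in MGE neurons and 9 lower. Most of the 25 are gate markers, so this count is not on equal terms with other genes. Of the 7 that are no gate markers 5 were higher and 1, Meis1, lower (log2 -4.03).

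Likeness of pattern was measured as Pearson's r of log2(CPM + 1) over the 40 sums of 20 classes in 2 libraries, for 16410 genes. These sums share libraries and range from cells that use the genes to cells that do not, so r is high for many genes and is a description. The gene most like Dlx1 was Dlx2 (r = 0.94), followed by Nrxn3 and Dlx6os1 (0.93 each), Dlx1as (0.92) and Sp9 (0.91). Dlx2 was most like Dlx1, Dlx6os1 (0.94), Dlx5 (0.92), Nrxn3 (0.91) and Dlx1as (0.90). Dlx5 was most like Gad2 (0.97), Gm14204 (0.96), Dlx6 and Dlx6os1 (0.95 each) and Gad1 (0.92), and Dlx6 most like Gad2 (0.96), Dlx5 (0.95), Slc32a1, Gad1 and Dlx6os1 (0.93 each). Dlx6os1 was most like Gad1 and Gad2 (0.95 each), Dlx5 (0.95), Dlx2 (0.94) and Gm14204 (0.93). The Gad genes and Slc32a1 helped to define the GABAergic classes.

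Of the rest of the family, Dlx3 had no UMI in the cells used and Dlx4 had 1. Dlx1as, the antisense neighbour of Dlx1, had 2619 and 2735 UMIs and an order of its own. MGE neurons had the highest level, at 291 and 377 CPM (334 ± 61.2), before CGE neurons at 263 ± 34.1 and eminence progenitors at 238 ± 31.6. LGE-type neurons had 119 ± 8.41 CPM and striatal neurons 20.1 ± 0.808. The difference between MGE and CGE neurons was not called (log2 0.35 ± 0.16, adjusted p = 0.269, edgeR), and CGE neurons overlapped with eminence progenitors. Between MGE and LGE-type neurons Dlx1as was higher in MGE neurons by 1.479 ± 0.150 (log2, adjusted p = 2.0e-05, edgeR), the opposite direction to Dlx1.

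Eminence progenitors made up 2.64% of the cells used and held 27.9% and 26.8% of Dlx1 UMIs, 29.0% and 28.2% of Dlx2, 16.9% and 17.3% of Dlx5, 13.1% and 15.8% of Dlx6 and 17.3% and 15.5% of Dlx6os1. GABAergic neurons, 21.3% of the cells, held 40.3% and 39.0% of Dlx1 and 55.9% and 56.6% of Dlx6os1. A share of UMIs is not on equal terms with a share of cells. Median UMIs per cell were 10313.5 to 11060 in eminence progenitors and 3992.5 to 4668.5 in GABAergic neurons. Cells that passed no gate, 25.9% of those used, held 23.6% to 29.6% of the UMIs of each gene. Among these, 203 and 163 cells with at least 2 UMIs of GABAergic genes and no more than 3 of excitatory genes held 48.6% and 48.2% of their Dlx6os1 UMIs. Of those cells, 69.5% and 79.1% had 2 or more cycling markers. The gate of GABAergic neurons admitted at most 1 cycling marker, so it left such cells out by construction, and this share describes the gate.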

How the data were processed

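Single-cell suspensions were run on the 10x Genomics 3′ platform at embryonic day 16.5, and per the labels Cell Ranger 7.0.0 and mm10 were used. The authors deposited raw UMI counts per gene and cell, and whether intronic reads and strand entered the counting was not given in the sources used here. Of these cells, 8139 and 8209 had between 1500 and 60000 UMIs with a mitochondrial share below 10%. Doublets were scored against 2 simulated doublets per cell (30 principal components, 45 neighbours) and removed at 0.8% per 1000 cells, 920 and 857 cells. Classes were gated on marker UMIs. Eminence progenitors needed 3 of 8 cycling genes and 3 UMIs from 2 eminence genes, and neuron subtypes a score of 0.2 with a lead of 0.2. The gate thresholds were set after marker levels had been seen, no Dlx gene was used, and 3770 cells stayed in no class.

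Raw counts were summed per class and library and tested with edgeR 4.0.16 (R 4.3.3; quasi-likelihood test, two-sided, TMM, filterByExpr), with Benjamini-Hochberg adjustment over all genes and a threshold of 0.05. Shared libraries pair the class sums: deviations of same-library sums correlated at 0.153 to 0.322 over genes, and the fit with the library as a block is an alternative. Detection was counted after thinning each cell to 2000 UMIs, leaving out shallower cells (85 MGE, 34 CGE and 66 LGE-type neurons, 26 Ebf1/Isl1 and 15 Drd2/Six3 neurons, 3 eminence progenitors and 94 erythroid cells). Wilson intervals (95%) cover counting error only. On simulated data for MGE against CGE neurons (9981 genes), 57% of 100 genes changed by a log2 of 1 and 97% of 100 changed by 2 were recovered, with 5 false calls.

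Named genes were the 5 Dlx genes, Dlx1as, Dlx3 and Dlx4, the called network genes with the largest differences that no gate used, and the 5 genes with the highest Pearson r to each Dlx gene among genes with at least 50 UMIs. Sp9 between eminence progenitors and GABAergic neurons was chosen after its value had been seen. Some genes of the lists are not reported here. The members, gene lists and comparisons were chosen with earlier results of these data known. Alternatives were DESeq2 1.42.0, no TMM, no filter on low counts, the library block, 1 fit over all classes, doublets kept, deeper cells (between 3000 and 30000 UMIs, mitochondrial share below 5%), stricter gates, gates without Gad1, Gad2 and Slc32a1, and each library alone. Python 3.11.15, numpy 2.4.6, scipy 1.17.1, pandas 2.3.3 and scikit-learn 1.9.0 were used.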

Additional observations from a re-analysis of the deposited data

How the results depend on the processing

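Of 63 tests of a Dlx gene in a comparison, 30 were called, 24 of them under all 9 alternatives, and all 30 had the same direction in both libraries. Of the 33 not called, 11 were called under at least 1 alternative. Over all genes, the share called ran from 2.06% to 57% between these comparisons. Leaving out a library left 1 sum per class, which gives a value without a test. The number of Dlx genes called changed in several comparisons, and the cause was not tested. For MGE against LGE-type neurons it went from 2 to 4 with the library as a replicate block, and to 1 with DESeq2, with deeper cells and with gates free of Gad1, Gad2 and Slc32a1. For CGE against LGE-type neurons it went from 1 to 2 with the block, and to 0 with DESeq2, the single fit, doublets kept, deeper cells, stricter gates and gates free of Gad genes. It went from 1 to 0 for Sst+ against Sst- cells in the single fit, and from 2 to 1 between the striatal types with DESeq2 and with stricter gates. The block also added Dlx5 between CGE and striatal neurons and changed no other call. It called more of all genes too, with 1719 against 1204 between MGE and LGE-type neurons and 978 against 721 between CGE and LGE-type neurons.

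The call on Dlx6os1 between MGE and striatal neurons ended in the single fit (adjusted p = 0.147, edgeR), and that on Dlx5 between LGE-type and striatal neurons with DESeq2 (0.473) and Gad-free gates (0.0681). With Gad-free gates, which by construction let Gad-positive cells into the RGCs, 4 genes were called for RGCs against IPCs and 4 against excitatory neurons, and with doublets kept 1 was called against excitatory neurons. The log2 differences then turned to 1.25 (Dlx1), 1.54 (Dlx2) and 2.5 (Dlx6os1) against IPCs, and to 1.46, 2.03, 1.57 (Dlx5), 1.19 (Dlx6) and 2.11 against excitatory neurons.

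Other reversals concerned differences that were not called. Against excitatory neurons, Dlx2 in RGCs turned to 0.16 with stricter gates, and Dlx6 to 0.18 without TMM, 0.18 with deeper cells and 0.50 with stricter gates. Between eminence progenitors and GABAergic neurons, Dlx5 turned to -0.0061 with doublets kept and -0.029 with Gad-free gates, Dlx6os1 to -0.033 and -0.080, and Dlx6 to 0.19 with stricter gates. Between MGE and LGE-type neurons Dlx2 turned to 0.17 with deeper cells, 0.073 with stricter gates and 0.074 with Gad-free gates. Dlx6 turned to 0.15 between MGE and CGE neurons with deeper cells and to 0.066 between CGE and striatal neurons with Gad-free gates. Dlx5 turned to -0.049 between MGE and striatal neurons in the single fit and to 0.11 between CGE and LGE-type neurons with stricter gates.

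Over all genes, DESeq2 called fewer, for example 4511 against 7109 between GABAergic and excitatory neurons, 400 against 762 between MGE and CGE neurons and 69 against 189 for the Sst split. Stricter gates called 1403 against 2159 between eminence and cortical progenitors and Gad-free gates 1289, and the block called 1681 against 1087 between LGE-type and striatal neurons. For the Sst split, 417 genes were called without a filter, 549 with the block, 109 with deeper cells and 58 with stricter gates. Of the genes called between GABAergic and excitatory neurons 49.2% were higher, against 61.3% without TMM and 30.6% in the single fit. Between RGCs and excitatory neurons the share was 47.4% against 58.4% without TMM, between eminence and cortical progenitors 45.5% against 58.6% in the single fit, and for the Sst split 70.4% against 57.6% without a filter, 49.7% in the single fit and 84.5% with stricter gates. The median of all genes between RGCs and excitatory neurons was -0.11 with TMM, 0.13 with DESeq2 and 0.10 without TMM. Dlx6 levels rest on 34 to 119 UMIs per class and library, so small differences of it may have been missed.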
